A study of Mus musculus with 6 samples.

Results

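The genes described here encode the proteins that dock, prime, fuse and recycle synaptic vesicles at the presynaptic terminal, together with their paralogs in other membrane traffic. They were chosen by name: all protein-coding rows for synaptotagmins, syntaxins, syntaxin binding proteins, VAMPs, complexins, synapsins, SV2 proteins, RAB3 GTPases, RIM proteins, SNAP23, SNAP25, SNAP29, SNAP91, Bassoon and Piccolo. The rule found 71 rows with 70 symbols among 43629 genes, of which 22196 are protein coding. The RNA-seq data comprise 3 tumor libraries, made from medulloblastoma tissue of Math1-Cre SmoM2.c/wt mice, and 3 made from the cerebellum of SmoM2.c/wt mice without the Cre, titled WT, called tumors 1 to 3 and WT cerebella 1 to 3 here. Both groups therefore carried 1 SmoM2 allele, a constitutively active Smoothened, and the Math1 promoter drove Cre in the granule neuron lineage of the tumor-bearing mice only. All 6 libraries are labelled as female, C57BL/6 background and postnatal day 35, and the WT mice were littermates per the design text. Nothing in the labels says that the 3 libraries of a group came from separate mice, so every p-value reflects how far these libraries differ among themselves, and that spread may be technical.

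A synaptic vesicle fuses when VAMP on the vesicle zips up with syntaxin and SNAP25 on the plasma membrane into a SNARE complex. Syntaxin binding proteins and complexins guide and clamp this complex, synaptotagmins trigger fusion when calcium enters, and RIM, Bassoon and Piccolo hold vesicles at the active zone beside the calcium channels. In the mature cerebellum granule neurons, the most numerous neurons, release glutamate from parallel fibres, while Purkinje cells and interneurons release GABA. Granule neuron progenitors, the cells of origin of this tumor type, have not yet formed synapses. Many paralogs of these proteins work outside synapses, at the Golgi, in endosomes or in immune and exocrine cells.

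Each value is a normalized count, the read count of a gene divided by 1 size factor per library. The libraries held 69550200, 49969867 and 52041234 reads in genes for tumors 1, 2 and 3, and 47163711, 44902217 and 49455221 for WT cerebella 1, 2 and 3. At this depth 3 reads equal between 2.17 and 3.57 normalized counts, which covers counting error only. The labelled tissues carried their markers: the summed level of 13 granule neuron progenitor markers was 316% to 341% of the WT mean in the tumors, and that of 17 mature granule neuron markers 16.5% to 20.8%. By the test used below, 11 of the 13 progenitor markers rose, 1 fell and 1 did not pass, with a median log2 fold change of 4.9. Their sum is weighted toward Zic1, which did not pass and averaged 55734 normalized counts in the tumors and 54195 in WT cerebella. Mitochondrial genes took 2.49% to 3.79% of reads in the tumors and 6.84% to 7.06% in WT cerebella, and their part in the results was not tested. Tissue was sequenced whole, so fewer cells of a type and less RNA per cell cannot be told apart in any value below.

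Most of the presynaptic machinery was lower in the tumors. Of the 71 members, 69 had enough reads to be tested, and 48 fell, 9 rose and 12 did not pass at a Benjamini-Hochberg adjusted p of 0.05 in limma's test. Over all 22117 genes tested, 31.5% were lower and 30.6% higher by the same rule (62.1% in either direction), against 69.6% and 13% of the tested members. Among the 16755 protein-coding genes tested, 35.5% were lower and 34.4% higher. The median log2 fold change was -0.96 over the tested members and -0.02 over all genes. The size factors equalled those recomputed from the median ratio of reads to each gene's geometric mean. Such scaling centres the typical gene, so the all-gene median does not measure a shift of the whole transcriptome. Of the 69 tested members, 33 were called at least 2-fold lower and 4 at least 2-fold higher. Over all 22117 genes, 4542 were called at least 2-fold lower and 3869 at least 2-fold higher. All 3 tumors lay below all 3 WT cerebella for 49 members, where 34.5% of all genes did so, and above them for 11, where 33.2% of all genes did. Over both directions 67.7% of all genes did not overlap. The untested rows were Stx19, a syntaxin of epithelia, and a second Vamp5 row on a patch scaffold, both listed at 0 in all 6 libraries. Of those tested, 66 exceeded 1 normalized count in every library, and Syt8, Cplx3 and Cplx4 did so in 3 to 5.

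**Figure D1:**
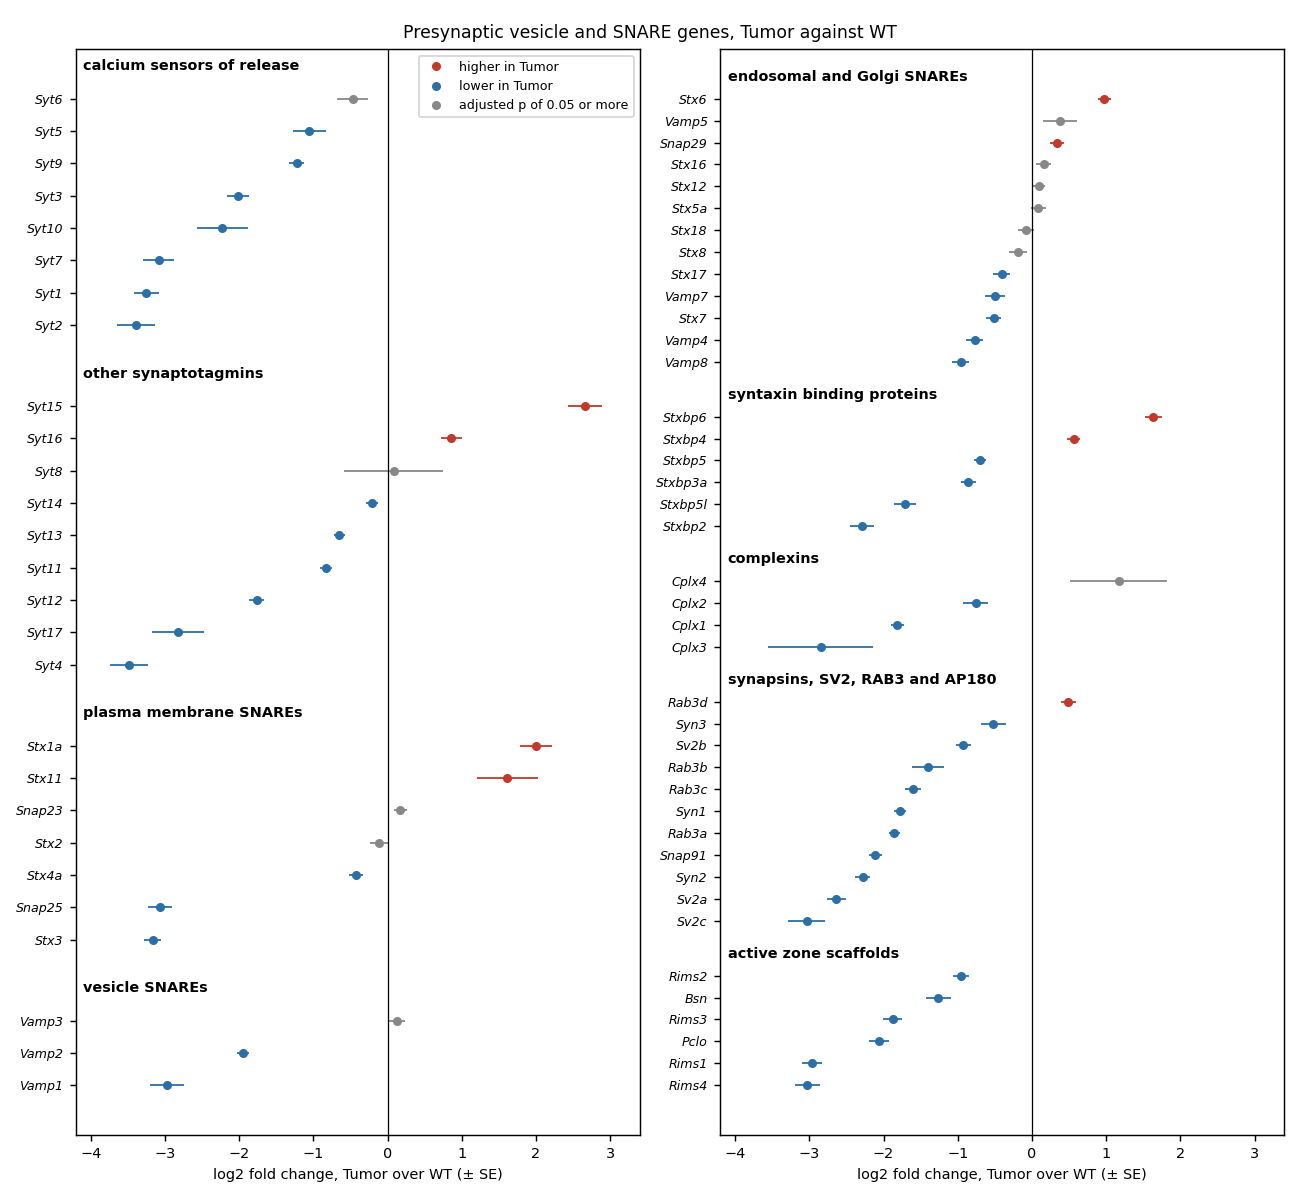
Log2 fold changes of 67 tested members, Tumor over WT, with limma's standard error as bars, grouped by role and ordered within a role. All 6 active zone genes and all 8 calcium sensors lie to the left of 0, while endosomal and Golgi SNAREs sit around 0 between -0.96 and 0.97.

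Promoters of 53 of the 70 symbols were found in RefSeq's GRCm38.p6 table, as 69 windows of 300 bases from 250 before to 50 after a transcript start. The windows of Syt15 and Stx1a, which had the largest rises, and of Syt1 and Syn1, which fell, are shown so that promoters of members with opposite changes can be set side by side. Capitals mark every match, on either strand, to the 5 motifs searched, which were the left part of a REST repressor site (TTCAGCACC), the cyclic AMP response element (TGACGTCA), a GLI site (TGGGTGGTC), an E-box (CAGCTG) and a GC box (CCGCCC). TGACGTCA and CAGCTG read the same on both strands, and no motif contains another.
Stx1a, chr5:135023232-135023531, plus strand: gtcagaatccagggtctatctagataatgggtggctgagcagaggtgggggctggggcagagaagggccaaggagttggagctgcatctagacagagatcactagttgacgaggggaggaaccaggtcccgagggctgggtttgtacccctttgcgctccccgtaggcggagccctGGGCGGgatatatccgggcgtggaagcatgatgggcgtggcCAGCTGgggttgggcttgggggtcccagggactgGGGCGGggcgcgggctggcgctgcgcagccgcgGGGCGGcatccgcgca
Syt15, chr14:34219796-34220095, plus strand: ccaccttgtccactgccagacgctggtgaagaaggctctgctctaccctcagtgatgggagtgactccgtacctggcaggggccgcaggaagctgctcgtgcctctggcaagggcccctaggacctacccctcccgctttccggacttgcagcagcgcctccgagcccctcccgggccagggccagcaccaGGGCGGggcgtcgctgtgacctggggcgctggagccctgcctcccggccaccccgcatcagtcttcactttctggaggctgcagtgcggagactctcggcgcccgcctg
Syn1, chrX:20920869-20921168, minus strand: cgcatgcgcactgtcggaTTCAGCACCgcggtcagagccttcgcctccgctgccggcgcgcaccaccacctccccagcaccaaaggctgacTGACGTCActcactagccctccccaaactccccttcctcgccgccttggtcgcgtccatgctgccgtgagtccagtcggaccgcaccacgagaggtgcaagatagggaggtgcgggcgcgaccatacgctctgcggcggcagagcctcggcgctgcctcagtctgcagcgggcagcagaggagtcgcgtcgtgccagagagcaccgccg
Syt1, chr10:109009062-109009361, minus strand: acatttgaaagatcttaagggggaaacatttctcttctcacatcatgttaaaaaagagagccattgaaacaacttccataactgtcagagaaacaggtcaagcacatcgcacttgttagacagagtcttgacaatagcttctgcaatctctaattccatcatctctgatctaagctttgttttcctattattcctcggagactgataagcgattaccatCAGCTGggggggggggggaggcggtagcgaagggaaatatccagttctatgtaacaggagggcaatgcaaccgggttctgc
REST is the repressor that keeps neuronal genes silent outside neurons, and GLI proteins are the transcription factors of the Sonic hedgehog pathway that SmoM2 switches on. The REST letters stood in the Syn1 window only, against 0.371% of all 32851 windows in the table. The cyclic AMP response element was also found in the Syn1 window alone among the members, against 1.79% of all windows. No member window held the GLI site letters, which 0.253% of all windows hold. The E-box letters stood in 30.4% of the 69 member windows, against 16.3% of all windows and 15.8% of the 19374 windows of protein-coding genes. The GC box stood in 63.8% of member windows, against 35.7% and 47.7% in the same 2 sets. Among the printed windows, that of Stx1a, which rose, held 1 E-box and 3 GC boxes, and that of Syt1, which fell and has 2 windows in the table, held 1 E-box in the one shown. The Syt1 window not shown, chr10:109010926-109011225, spans the start of the gene as annotated and held 1 GC box. Its GC content was 56.7%, against 44% in the Syt1 window shown. The Syt15 window shown begins at 34219796, past the annotated gene start at 34219595, so it lies wholly inside the gene bounds. The median GC content was 62.7% in the member windows and 57.0% in those of protein-coding genes. These are matches of letters in a fixed window and show no binding.

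The calcium sensors of release fell as a group, with 7 of 8 lower and 1 that did not pass. Syt1, the fast calcium sensor of synaptic vesicle release, had 2848, 2943 and 4655 normalized counts in tumors 1, 2 and 3, against 32537, 34460.1 and 30082 in WT cerebella 1, 2 and 3. It fell 9.52-fold (log2 fold change -3.25 ± 0.17 SE, limma adjusted p = 1.6e-07). Syt2, a fast sensor that is abundant in the hindbrain, had 1625, 2208 and 3936 normalized counts in tumors 1, 2 and 3, against 23992, 26388 and 25819 in WT cerebella 1, 2 and 3. All 3 tumors lay far below all WT cerebella for both genes, with tumor 3 the highest of the tumors, and Syt2 fell 10.5-fold (log2 fold change -3.39 ± 0.25 SE, limma adjusted p = 1.77e-06). Syt7, a slower sensor of high calcium affinity, had 946, 1503 and 1926 normalized counts in tumors 1, 2 and 3, against 11351, 13021 and 11305 in WT cerebella 1, 2 and 3, again with tumor 3 highest. It fell 8.48-fold (log2 fold change -3.08 ± 0.21 SE, limma adjusted p = 9.87e-07). Syt9, the third sensor able to drive fast release, fell only 2.34-fold, at 2458, 2109 and 2541 normalized counts in tumors 1, 2 and 3, against 5618, 5919 and 5066 in WT cerebella 1, 2 and 3 (log2 fold change -1.23 ± 0.10 SE, limma adjusted p = 3.1e-06). Syt3, a calcium-binding synaptotagmin, fell 4.04-fold, averaging 229 ± 34.3 normalized counts in the tumors and 924 ± 65.2 in WT cerebella (± SD, n = 3 each, as in all means below). Syt10, known as a sensor for growth factor secretion in olfactory neurons, fell 4.68-fold, and Syt5 fell 2.08-fold. Syt5 had 113, 73.7 and 100.4 normalized counts in tumors 1, 2 and 3, against 209, 197 and 185 in WT cerebella 1, 2 and 3, and is one of the few falling members with its highest tumor value in tumor 1. Syt6 did not pass, at 187, 188 and 295 normalized counts in tumors 1, 2 and 3, against 319, 308 and 282 in WT cerebella 1, 2 and 3, where tumor 3 overlapped the WT cerebella (adjusted p = 0.0702). Without tumor replicate 3 it was called lower, with a log2 fold change of -0.69 and a limma adjusted p of 0.00490.

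The other synaptotagmins, most of which do not bind calcium, moved in both directions, with 6 lower, 2 higher and 1 that did not pass. Syt4, a synaptotagmin of dense-core vesicles and dendrites (ENSMUSG00000024261), had 2491, 2111 and 5014 normalized counts in tumors 1, 2 and 3, against 32808, 33812 and 33522 in WT cerebella 1, 2 and 3. It showed the largest fall of all members, 11.2-fold (log2 fold change -3.49 ± 0.26 SE, limma adjusted p = 1.62e-06), and tumor 3 was again the highest tumor. An antisense gene shares 14.5% of its exon length. Syt15, a synaptotagmin that lacks calcium binding, went the other way with 409, 403 and 601 normalized counts in tumors 1, 2 and 3, against 83.8, 58.3 and 77 in WT cerebella 1, 2 and 3. Its rise of 6.33-fold was the largest among the members (log2 fold change 2.66 ± 0.23 SE, limma adjusted p = 4.79e-06), and no library overlapped. Its coordinates are ENSMUSG00000041479, chromosome 14, 34219595 to 34230421, plus strand, mm10. Syt16 rose 1.82-fold, with 574, 489 and 573 normalized counts in tumors 1, 2 and 3, against 287, 281 and 331 in WT cerebella 1, 2 and 3. Syt11, an inhibitor of vesicle recycling and one of the most abundant synaptotagmins here, had 18286, 17657 and 17404 normalized counts in tumors 1, 2 and 3, against 29821, 32029 and 33148 in WT cerebella 1, 2 and 3. Its fall was 1.78-fold (log2 fold change -0.83 ± 0.08 SE, limma adjusted p = 1.09e-05), and the 3 tumors were close to each other. Syt13 fell 1.57-fold, averaging 4803 ± 82.7 normalized counts in the tumors and 7540.1 ± 284 in WT cerebella. Syt12, a vesicle protein with 17.2% of its exon length shared with a noncoding gene, fell 3.4-fold, averaging 1407 ± 119 normalized counts in the tumors and 4784 ± 406 in WT cerebella. Syt17 fell 7.07-fold at a low level, with 28.2, 13.2 and 29.5 normalized counts in tumors 1, 2 and 3, against 139.6, 177 and 177 in WT cerebella 1, 2 and 3. Syt14 was just past the threshold, at 1746 ± 32.5 normalized counts in the tumors and 2024 ± 89.9 in WT cerebella (log2 fold change -0.21, limma adjusted p = 0.0465), and lost its call in 12 of 17 alternatives. Syt8 had 5 reads in all tumors together and 3 in all WT cerebella, too few to compare.

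Among the 7 plasma membrane SNAREs described here, Snap25, Stx3 and Stx4a fell, Stx1a and Stx11 rose, and Snap23 and Stx2 did not pass. Stx1a, a neuronal syntaxin of synaptic release, had 562, 695 and 434 normalized counts in tumors 1, 2 and 3, against 143, 112 and 165 in WT cerebella 1, 2 and 3, a rise of 3.99-fold (log2 fold change 1.99 ± 0.22 SE, limma adjusted p = 2.53e-05). All 3 tumors lay above all WT cerebella, and tumor 3 had the least Stx1a of the tumors. Its coordinates are ENSMUSG00000007207, chromosome 5, 135023482 to 135051100, plus strand, mm10. Snap25, the neuronal plasma membrane SNARE that supplies 2 helices of the complex, was the most abundant member per kilobase of exon in each WT cerebellum. Cplx2 stood above it in all 3 tumors, Syt11 and Stx12 in tumors 1 and 2 but not in tumor 3, and Cplx1 in tumor 2 alone. The mean levels per kilobase were 3214 in the tumors and 26306 in WT for Snap25, 4201 in the tumors and 7049 in WT for Cplx2 and 3416 in the tumors and 6084 in WT for Syt11. Snap25 had 21253, 16541 and 27687 normalized counts in tumors 1, 2 and 3, against 181215, 180844 and 173878 in WT cerebella 1, 2 and 3, a fall of 8.37-fold (log2 fold change -3.06 ± 0.16 SE, limma adjusted p = 1.96e-07). Snap23, its counterpart in non-neuronal cells, did not pass, at 1895, 1806 and 1977 normalized counts in tumors 1, 2 and 3, against 1788, 1596 and 1669 in WT cerebella 1, 2 and 3 (adjusted p = 0.124). All 3 tumors stood slightly above all WT cerebella for Snap23. Stx3, a syntaxin of ribbon synapses and of apical and postsynaptic membranes, had 292, 278 and 336 normalized counts in tumors 1, 2 and 3, against 2913, 2682 and 2528 in WT cerebella 1, 2 and 3. It fell 8.95-fold (log2 fold change -3.16 ± 0.11 SE, limma adjusted p = 1.76e-08), and the tumors varied little. Stx4a, the syntaxin of regulated glucose transporter traffic, fell 1.34-fold, averaging 1656 ± 143 normalized counts in the tumors and 2213 ± 43.9 in WT cerebella. Stx2, a syntaxin with a part in cytokinesis, did not pass, at 563, 708 and 605 normalized counts in tumors 1, 2 and 3, against 648, 693 and 685 in WT cerebella 1, 2 and 3 (adjusted p = 0.432). Stx11, a syntaxin of immune cells needed for cytotoxic granule release, rose 3.06-fold at a low level, 69.3, 35 and 48.2 normalized counts in tumors 1, 2 and 3, against 12.3, 22.6 and 12.8 in WT cerebella 1, 2 and 3. Beside it, the summed level of 14 microglia and macrophage markers was 375% to 428% of the WT mean in the tumors, 13 of the 14 rose, and none was at 0 in a library. Their part in the Stx11 value was not tested.

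**Figure D2:**
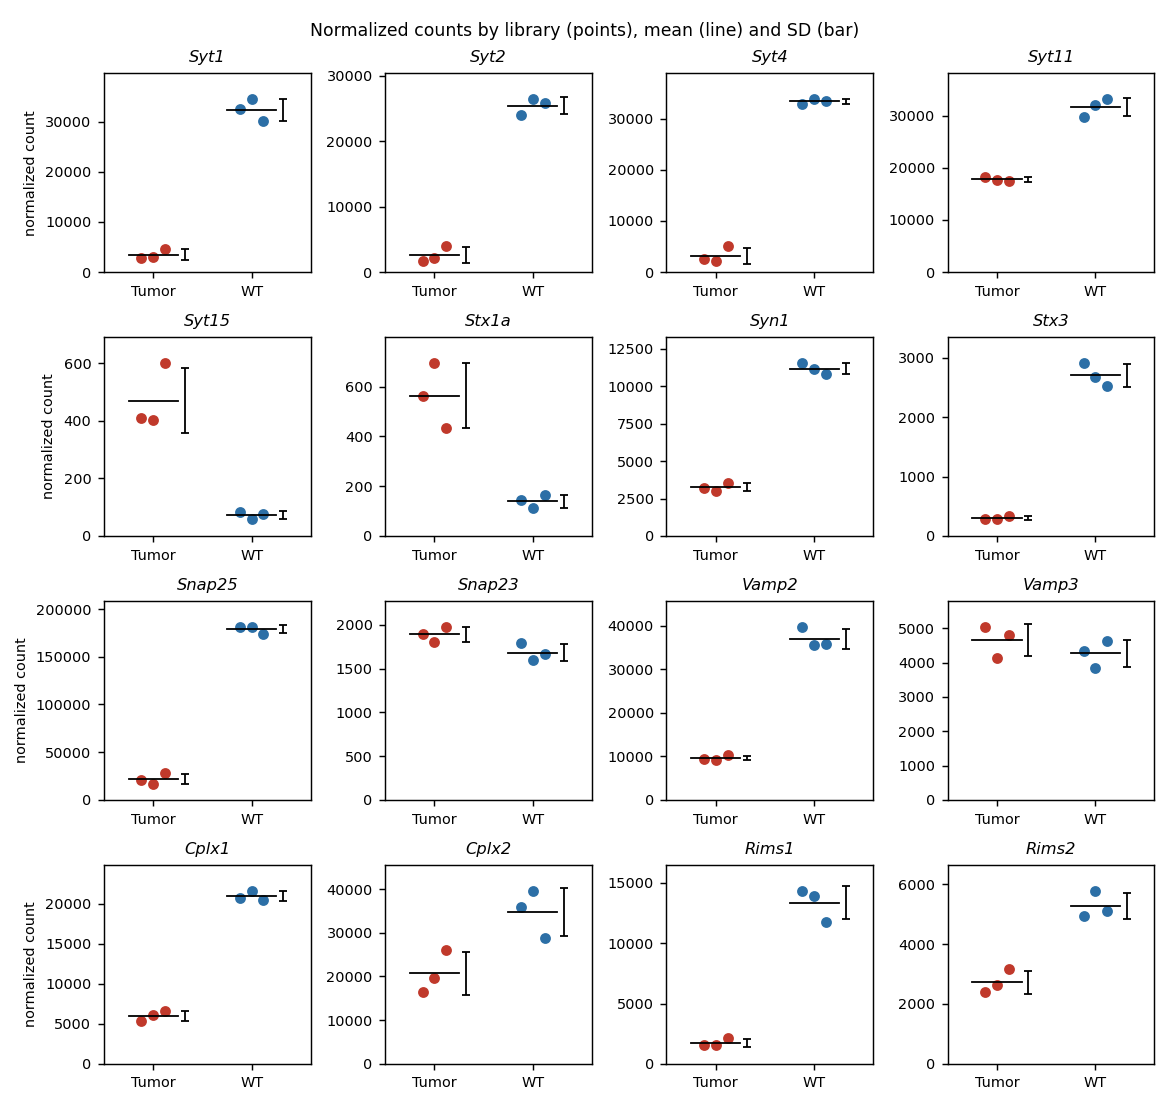
Normalized counts of 16 members in each library (points), with the mean as a line and the SD as a bar, Tumor left of WT, each panel on its own axis from 0. Stx1a and Syt15 are higher in all 3 tumors, Snap23 and Vamp3 are near their WT level, and the other 12 are lower in all 3 tumors.

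Of the 3 vesicle SNAREs, 2 fell and 1 did not pass. Vamp2, the main vesicle SNARE of central synapses, had 9374, 9239 and 10223 normalized counts in tumors 1, 2 and 3, against 39689, 35646 and 35772 in WT cerebella 1, 2 and 3. It fell 3.85-fold (log2 fold change -1.95 ± 0.08 SE, limma adjusted p = 5.57e-08). Vamp1, a form prominent in the brainstem and spinal cord, had 1218, 1383 and 2562 normalized counts in tumors 1, 2 and 3, against 12340.4, 12755 and 13266 in WT cerebella 1, 2 and 3. Tumor 3 again had the highest tumor value, and Vamp1 fell 7.84-fold (log2 fold change -2.97 ± 0.23 SE, limma adjusted p = 2.04e-06). Vamp3, or cellubrevin, which serves recycling endosomes in most cells, did not pass, at 5042, 4141 and 4815 normalized counts in tumors 1, 2 and 3, against 4349, 3841 and 4631 in WT cerebella 1, 2 and 3 (adjusted p = 0.317), and its groups overlapped.

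SNAREs of endosomes, lysosomes and the Golgi, a group of 14 rows with 13 tested, had a median log2 fold change of -0.08. Of them 5 fell, 2 rose and 6 did not pass, and none reached a 2-fold difference. Stx6, a syntaxin of the trans-Golgi network, rose 1.97-fold with 5379, 6296 and 5651 normalized counts in tumors 1, 2 and 3, against 2871, 2915 and 3010.0 in WT cerebella 1, 2 and 3 (log2 fold change 0.97 ± 0.08 SE, limma adjusted p = 4.85e-06). Snap29, which works in autophagosome and endosome fusion, rose 1.26-fold with 3534, 2887 and 3534 normalized counts in tumors 1, 2 and 3, against 2548, 2582 and 2708 in WT cerebella 1, 2 and 3 (limma adjusted p = 0.0129). Without WT replicate 1 its adjusted p was 0.0528. The largest falls were those of Vamp8, a SNARE of late endosomes and autophagosomes, at 1.95-fold, and Vamp4, a trans-Golgi SNARE, at 1.71-fold. Vamp8 had 793, 627 and 778 normalized counts in tumors 1, 2 and 3, against 1449, 1357 and 1452 in WT cerebella 1, 2 and 3, and Vamp4 had 4387, 3169 and 4147 normalized counts in tumors 1, 2 and 3, against 6776, 6468 and 6587 in WT cerebella 1, 2 and 3. All tumors lay below all WT cerebella for both. Smaller falls were seen for Stx7, a late endosomal syntaxin (1.43-fold), Vamp7, a SNARE of lysosome exocytosis (1.42-fold), and Stx17, the syntaxin of autophagosomes (1.33-fold). Stx12 of recycling endosomes, Stx16 of the trans-Golgi network, Stx5a of endoplasmic reticulum to Golgi traffic, Stx18 of the endoplasmic reticulum and Stx8 of late endosomes did not pass. Stx12, the most abundant of the group per kilobase of exon in both tissues, had 10099, 9088 and 10125 normalized counts in tumors 1, 2 and 3, against 9269.6, 8724 and 9360.3 in WT cerebella 1, 2 and 3. Stx16 had 5306, 5955 and 4537 normalized counts in tumors 1, 2 and 3, against 4968, 4657 and 4480.2 in WT cerebella 1, 2 and 3, and Stx5a had 4225, 3968 and 3351 normalized counts in tumors 1, 2 and 3, against 3870.4, 3587 and 3413 in WT cerebella 1, 2 and 3. Both overlapped between the groups, as did Stx12. Stx18, of whose exon length 32.3% is shared with other genes, had 1286, 1044 and 1096 normalized counts in tumors 1, 2 and 3, against 1293, 1159 and 1172 in WT cerebella 1, 2 and 3. Stx8 had 1810.5, 1342 and 1700.1 normalized counts in tumors 1, 2 and 3, against 1867, 1814 and 1813 in WT cerebella 1, 2 and 3, with all tumors slightly below all WT cerebella. The log2 fold changes of these 5 genes ran from -0.19 for Stx8 to 0.16 for Stx16. Vamp5, a muscle-associated VAMP at 113 ± 9.5 normalized counts in the tumors and 86.8 ± 9.86 in WT cerebella, did not pass either (adjusted p = 0.173).

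Among the 6 syntaxin binding proteins described here, 4 fell and 2 rose. Stxbp2, best known from immune and epithelial secretion, fell 4.91-fold with 214, 253 and 175 normalized counts in tumors 1, 2 and 3, against 1063, 1154 and 923 in WT cerebella 1, 2 and 3. Stxbp3a, which serves general traffic to the plasma membrane, fell 1.81-fold, averaging 1231 ± 137 normalized counts in the tumors and 2227 ± 99.3 in WT cerebella. Stxbp5 and Stxbp5l encode tomosyns, which hold back SNARE assembly. They fell 1.63-fold and 3.27-fold, with mean normalized counts of 3431 in the tumors and 5590.4 in WT for Stxbp5 and 1216 in the tumors and 3923 in WT for Stxbp5l. Stxbp6, or amisyn, another protein that occupies syntaxin and SNAP25, went the other way with 4028, 3429 and 4188 normalized counts in tumors 1, 2 and 3, against 1242, 1109 and 1408 in WT cerebella 1, 2 and 3. Its rise was 3.1-fold (log2 fold change 1.63 ± 0.12 SE, limma adjusted p = 1.17e-06), with the lowest tumor above every WT cerebellum. Stxbp4, a syntaxin 4 binding protein, rose 1.48-fold with 2442, 2156 and 2299 normalized counts in tumors 1, 2 and 3, against 1557, 1485 and 1623 in WT cerebella 1, 2 and 3. Of the 3 tomosyn and amisyn genes, all inhibitors of SNARE assembly, 2 fell and 1 rose.

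The complexins fell where they were well expressed. Cplx1 had 5320.2, 6051 and 6560.2 normalized counts in tumors 1, 2 and 3, against 20734, 21622 and 20513 in WT cerebella 1, 2 and 3, a fall of 3.52-fold (log2 fold change -1.81 ± 0.09 SE, limma adjusted p = 1.35e-07). Cplx2 had 16359.9, 19583 and 26164 normalized counts in tumors 1, 2 and 3, against 35859.9, 39609 and 28748 in WT cerebella 1, 2 and 3, a fall of 1.7-fold (log2 fold change -0.76 ± 0.17 SE, limma adjusted p = 0.00345). Tumor 3 came close to WT cerebellum 3 for Cplx2, and the groups did not overlap. Complexin 3 and 4 are known from ribbon synapses of the retina. Cplx3 had 0.722, 13.2 and 6.89 normalized counts in tumors 1, 2 and 3, against 38, 49.9 and 35.3 in WT cerebella 1, 2 and 3. It fell at this low level, with 22 reads in all tumors and 109 in all WT cerebella (log2 fold change -2.85, limma adjusted p = 0.00586). Its log2 fold change was -1.97 without tumor replicate 1, -3.50 without tumor replicate 2 and -2.09 with a pseudocount of 5. Cplx4 had 7 reads in the tumors and 1 in WT, too few to compare.

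Of 11 vesicle-associated genes, the synapsins, SV2 proteins, RAB3 GTPases and Snap91, 10 fell and 1 rose. The synapsins tether vesicles into the reserve pool. Syn1 had 3211, 3034 and 3558 normalized counts in tumors 1, 2 and 3, against 11556, 11157 and 10854 in WT cerebella 1, 2 and 3, a fall of 3.43-fold (log2 fold change -1.78 ± 0.08 SE, limma adjusted p = 8.88e-08), and Syn2 fell 4.86-fold, averaging 4082 ± 553 normalized counts in the tumors and 19736 ± 380.2 in WT cerebella. Syn3, the synapsin expressed early in development, fell 1.43-fold with 220.3, 258 and 319.7 normalized counts in tumors 1, 2 and 3, against 358, 382 and 393 in WT cerebella 1, 2 and 3 (limma adjusted p = 0.0223). In GENCODE M21, 14.1% of its exon length is shared with other genes, namely Timp3 on the opposite strand, which fell 2.0-fold. Without strand, reads in that shared stretch cannot be told apart between the genes. The Syn3 call was lost with library totals (limma adjusted p = 0.0523) and without tumor replicate 1 (0.0710), WT replicate 2 (0.0684) or WT replicate 3 (0.0784). The SV2 genes encode transporter-like glycoproteins of the vesicle membrane. Sv2a, the binding site of the drug levetiracetam, had 3087, 3767 and 4493 normalized counts in tumors 1, 2 and 3, against 21838, 24708 and 23455 in WT cerebella 1, 2 and 3, a fall of 6.23-fold (log2 fold change -2.64 ± 0.13 SE, limma adjusted p = 1.05e-07). Sv2b fell less, 1.9-fold with 9904, 9358 and 12006 normalized counts in tumors 1, 2 and 3, against 19108, 20777 and 19254 in WT cerebella 1, 2 and 3, and Sv2c fell 8.22-fold with 102, 147 and 231 normalized counts in tumors 1, 2 and 3, against 1147, 1385 and 1235 in WT cerebella 1, 2 and 3. The RAB3 proteins are small GTPases that bring vesicles to RIM. Rab3a, the main form in brain, had 3968, 3701 and 4121 normalized counts in tumors 1, 2 and 3, against 14527, 13834 and 14228 in WT cerebella 1, 2 and 3, a fall of 3.61-fold (log2 fold change -1.85 ± 0.08 SE, limma adjusted p = 4.01e-08). Rab3c fell 3.05-fold, averaging 7241 ± 1081 normalized counts in the tumors and 21925 ± 833 in WT cerebella, and Rab3b fell 2.65-fold, averaging 188 ± 49.5 normalized counts in the tumors and 489 ± 52.5 in WT cerebella. Rab3d, the form of exocrine and other secretory granules, rose 1.4-fold with 1698, 1479 and 1421 normalized counts in tumors 1, 2 and 3, against 1088, 1138 and 1049 in WT cerebella 1, 2 and 3 (log2 fold change 0.49 ± 0.10 SE, limma adjusted p = 0.00204), the smallest of the 9 rises after that of Snap29. Snap91, which encodes the clathrin adaptor AP180 and is no SNARE despite its symbol, fell 4.33-fold, averaging 4003 ± 377 normalized counts in the tumors and 17276 ± 138 in WT cerebella.

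All 6 active zone genes fell. Rims1, the central scaffold of the active zone, had 1562, 1522 and 2098 normalized counts in tumors 1, 2 and 3, against 14346, 13957 and 11797 in WT cerebella 1, 2 and 3, a fall of 7.79-fold (log2 fold change -2.96 ± 0.13 SE, limma adjusted p = 6.51e-08). Rims2, which shares this function, fell only 1.94-fold with 2408, 2623 and 3156 normalized counts in tumors 1, 2 and 3, against 4954, 5781 and 5102 in WT cerebella 1, 2 and 3. Rims3 and Rims4 encode short RIM proteins with the C-terminal domain alone. Rims3 fell 3.68-fold, averaging 3524 ± 617 normalized counts in the tumors and 12846 ± 989.6 in WT cerebella, and Rims4 fell 8.16-fold with 703, 933 and 1228 normalized counts in tumors 1, 2 and 3, against 7223, 8151 and 7469 in WT cerebella 1, 2 and 3, the largest fall at the active zone. Bsn and Pclo encode the giant scaffolds Bassoon and Piccolo. Bsn had 2278, 3590.0 and 2647 normalized counts in tumors 1, 2 and 3, against 7417, 7262 and 5584 in WT cerebella 1, 2 and 3, a fall of 2.4-fold, with tumor 2 the highest tumor. Pclo had 3136, 3189 and 3704 normalized counts in tumors 1, 2 and 3, against 16407, 14387 and 11396 in WT cerebella 1, 2 and 3, a fall of 4.17-fold (log2 fold change -2.06 ± 0.13 SE, limma adjusted p = 6.01e-07). A lincRNA row that also carries the symbol Pclo, directly downstream of the gene on the same strand, was 8.98-fold lower (limma adjusted p = 1.35e-07). It was not counted as a member.

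The balance between paralogs of a family was compared as a ratio of their values. Such a ratio within a library carries no library size, and its change between groups carries no gene length. Of 15 paralog pairs compared, 14 had ratios that did not overlap between the groups, and 10 differed at least 2-fold. Over all pairs of the 22117 tested genes, 63.1% of ratios did not overlap and 61.4% differed at least 2-fold, so the share of paralog pairs past 2-fold was near that of gene pairs in general. Each of the 14 ratios without overlap gave p = 0.1 in an exact two-sided permutation test, the smallest that 3 against 3 libraries allow, or 0.107 adjusted over the 15 pairs, so none could pass 0.05. The ratio of Snap23 to Snap25 moved most, at 0.0892, 0.109 and 0.0714 in tumors 1, 2 and 3, against 0.00987, 0.00883 and 0.00961 in WT cerebella 1, 2 and 3, a 9.4-fold difference. The mean tumor ratio exceeded the mean WT ratio 5.35-fold for Syt11 to Syt1, 5.06-fold for Rab3d to Rab3a, 4.2-fold for Vamp3 to Vamp2, 4.01-fold for Rims2 to Rims1 and 3.28-fold for Sv2b to Sv2a, as geometric means. The tumor ratio lay below the WT ratio 2.08-fold for Cplx1 to Cplx2 and 2.04-fold for Vamp1 to Vamp2. The ratio that overlapped was that of Syt2 to Syt1, at 0.571, 0.751 and 0.846 in tumors 1, 2 and 3, against 0.737, 0.766 and 0.858 in WT cerebella 1, 2 and 3. Syt1 and Syt2 fell by amounts that these libraries did not separate (difference in log2 ratio -0.14, exact permutation p = 0.6).

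**Figure D3:**
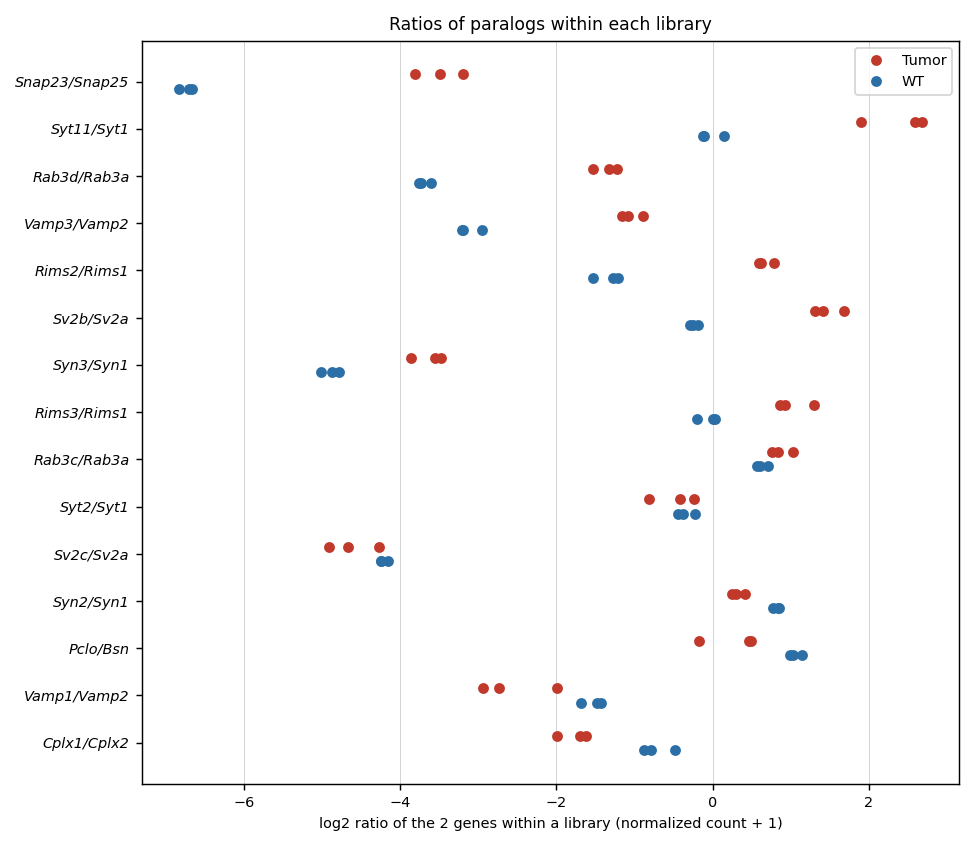
Log2 ratios of 15 paralog pairs within each library, Tumor (red) above WT (blue), ordered by the difference. The ratio of Snap23 to Snap25 shows the widest gap, 3.23 on the log2 scale, and the ratio of Syt2 to Syt1 overlaps.

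Levels of different genes were compared per kilobase of exon in GENCODE M21. On this scale the share of Snap23 in the sum of Snap23 and Snap25 was 12.4, 14.7 and 10.1% in tumors 1, 2 and 3, against 1.54, 1.38 and 1.5% in WT cerebella 1, 2 and 3. Among Vamp1, Vamp2 and Vamp3, Vamp3 made up 37.5% ± 2.49 of the family in the tumors and 11.9% ± 1.02 in WT, second to Vamp2 in both. Among the 3 sensors of fast release, the order was Syt9, Syt1, Syt2 in the tumors and Syt1, Syt2, Syt9 in WT, by group means. In counts per kilobase, Syt9 had 618, 530.1 and 639, Syt1 342, 353 and 558 and Syt2 213, 289 and 515 in tumors 1, 2 and 3, so neighbours in this order overlap across tumors, though the order was the same within each tumor. The share of Syt9 in their summed level was 52.7, 45.2 and 37.3% in tumors 1, 2 and 3, against 16.7, 16.4 and 15.4% in WT cerebella 1, 2 and 3. In the SV2 family the leading gene was Sv2b in the tumors and Sv2a in WT, and Sv2b made up 60.0% ± 3.2 of the family in the tumors and 31.3% ± 0.698 in WT. Of complexins 1 and 2, Cplx2 led in the tumors and Cplx1 in WT, and Cplx2 made up 60.2% ± 3.27 of the family in the tumors and 42.2% ± 3.42 in WT. In the RIM family the order was Rims3, Rims2, Rims1, Rims4 in the tumors and Rims1, Rims3, Rims4, Rims2 in WT, by group means. Rims1 had 212, 207 and 285 counts per kilobase in tumors 1, 2 and 3, and Rims2 had 232, 253 and 304, so these neighbours in the tumor order overlap. Rims1 and Rims4 also overlap in the tumors, and Rims1 and Rims3, and Rims3 and Rims4, in WT. Summed per kilobase, the family totals of all 3 tumors lay below those of all 3 WT cerebella in each of the 8 families formed. The gap between the means ran from 2.4-fold for complexins 1 and 2 to 7.3-fold for SNAP23 and SNAP25. These totals add up members already described singly, and add no separate result. Of all single genes tested, 34.5% had all 3 tumors below all 3 WT cerebella.

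**Figure D4:**
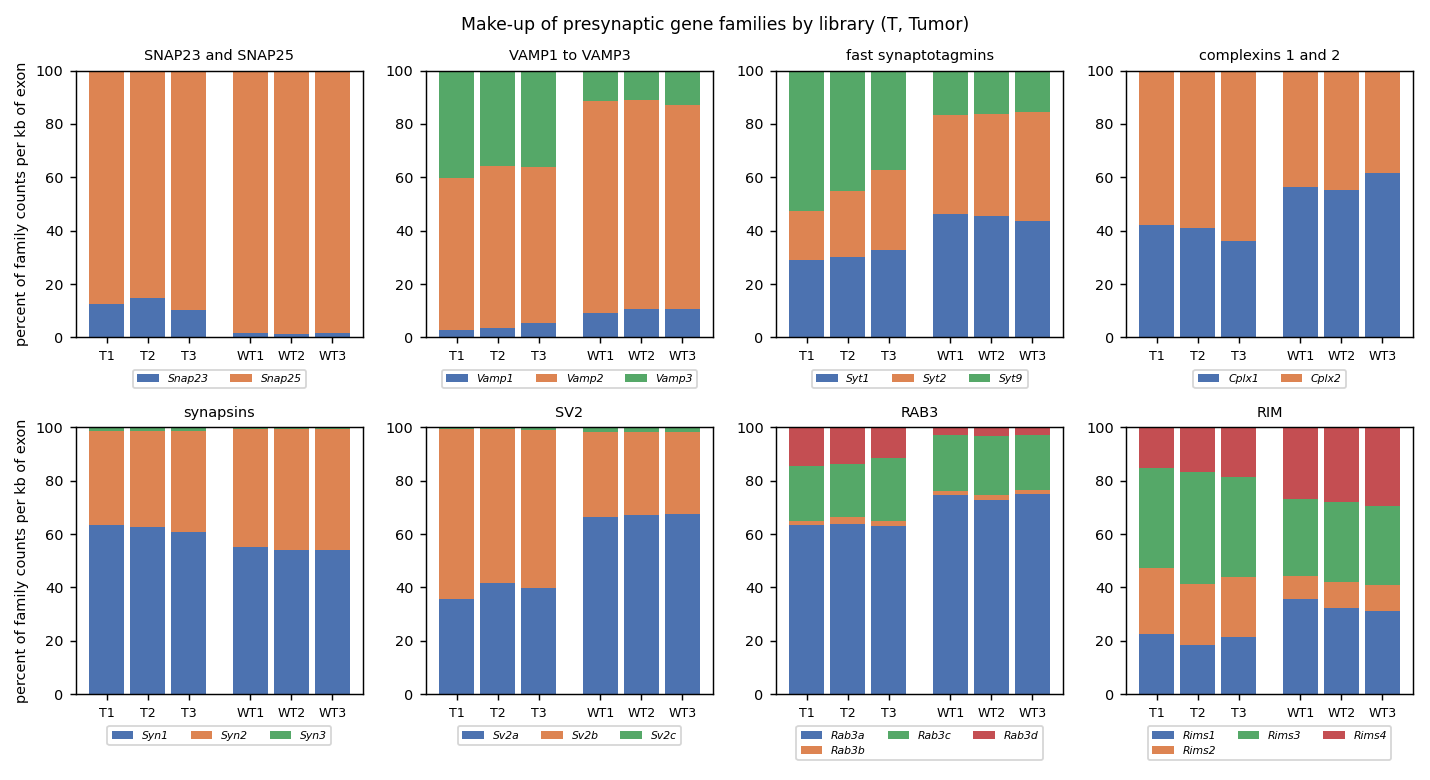
Share of each gene in the summed counts per kilobase of exon of its family, in percent, for tumors 1 to 3 (T1 to T3) left of WT cerebella 1 to 3. Snap23, Vamp3, Syt9, Syn1, Syn3, Cplx2, Sv2b, Rab3d, Rims2 and Rims3 take larger shares in every tumor than in any WT cerebellum.

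Genes of the same processes outside the name rule were listed as well. Of 34 other exocytosis genes, 27 fell, 4 rose and 3 did not pass, with a median log2 fold change of -1.06. Unc13c, the priming factor Munc13-3 of cerebellar granule cells, fell 12-fold, averaging 1211 ± 650.3 normalized counts in the tumors and 13339 ± 530.3 in WT cerebella, and Prrt2, a SNARE-binding protein, fell 8.1-fold. Doc2a, a calcium sensor of asynchronous and spontaneous release, had 1132, 1091 and 956 normalized counts in tumors 1, 2 and 3, against 21.2, 33.3 and 32.1 in WT cerebella 1, 2 and 3, a rise of 36.1-fold (log2 fold change 5.17 ± 0.22 SE, limma adjusted p = 4.72e-08). The next largest rise was that of Apba2, an adaptor protein of presynaptic terminals, at 2.01-fold. Of 18 other vesicle membrane proteins, 15 fell and 3 rose (median -1.49). Slc17a7, the glutamate loader VGLUT1 of mature granule neurons, fell 11-fold, and Atp6v1g2, a neuronal subunit of the vesicle proton pump, fell 8.89-fold. Slc17a6, the glutamate loader VGLUT2, rose 2.59-fold, averaging 5539.9 ± 394 normalized counts in the tumors and 2164 ± 423 in WT cerebella. Syngr4 rose at 25 reads in all tumors and 2 in all WT cerebella. Of 31 endocytosis genes, 16 fell, 4 rose and 11 did not pass (median -0.21). The neuronal dynamins Dnm1 and Dnm3, which pinch off vesicles, fell 8.17-fold and 7.51-fold, while the ubiquitous Dnm2 rose 1.34-fold and Hspa8, the chaperone that strips clathrin coats, 1.28-fold. Of 25 other SNAREs and fusion proteins of the secretory pathway, 11 fell, 7 rose and 7 did not pass (median -0.24). The ends of that list were Sytl2, a RAB27 effector, and Sytl5, which fell 5.94-fold and 5.11-fold, and Txlna, a syntaxin-binding taxilin, and Sec22c, which rose 1.78-fold and 1.53-fold. Sytl5 was at a low level, with 16 reads in all tumors and 81 in all WT cerebella.

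Most members that fell were least reduced in tumor 3. Of the 48 members that fell, 36 had their highest tumor value in tumor 3, or 75.0%, against 50.4% of all 6977 genes that fell. Of the 9 that rose, 2 had their highest value in tumor 3, or 22.2%, against 27.6% of all 6761 genes that rose. Summed over the 48, the level was 23.8, 23.8 and 29.8% of the WT mean in tumors 1, 2 and 3. Markers of mature neurons ran the same way. The summed level was 16.5, 17 and 20.8% for mature granule neurons, 11.6, 12.4 and 19.3% for Purkinje cells and 13.4, 14.3 and 19.4% for GABAergic interneurons in tumors 1, 2 and 3. Of these lists, 16 of 17, 14 of 16 and 16 of 16 markers fell, and none was at 0 in a library. The granule neuron marker that rose was Reln, at 1.23-fold. The Purkinje cell markers that rose were Lhx1, at 2.61-fold, and Foxp2, at 2.94-fold. The median log2 fold changes of the 3 lists were -3.0, -3.08 and -2.74. Oligodendrocyte markers, of which 14 of 14 fell, were at 11.5, 8.63 and 21.9%. Of the other glial and vascular lists, endothelial markers (8 of 10 fell) were at 30.3, 42.7 and 55% and astrocyte and Bergmann glia markers (9 of 12 fell, 2 rose) at 58.2, 55 and 62.4%, both highest in tumor 3. Choroid plexus markers (8 of 10 fell, 1 rose) were lowest there, at 26.6, 22.4 and 5.46%. Oligodendrocyte precursor markers, of which 5 of 7 rose and 1 fell, were at 395, 449 and 388%. The part of these cells in the members' values was not tested. Without tumor 3, 48 members were lower and 10 higher: Stx16 joined those higher (limma adjusted p = 0.0297) and Syt6 those lower (0.00490), while Syt14 lost its call (0.0566). The 12 members that did not pass summed to 111, 103 and 104% of the WT mean, and the 9 that rose to 187, 179 and 188%. Members were grouped by their call on these same values, so where these sums lie against the WT mean follows from the grouping. Newborn granule neuron markers, of which 10 of 14 rose and 3 fell, had a median log2 fold change of 2.67. Their sum was at 148, 135 and 138% of the WT mean in tumors 1, 2 and 3. That sum is weighted toward abundant genes, among them Stmn2 and Neurod1, which fell. The lists are not separate throughout, since Neurod1 is also a mature granule neuron marker here. Slc17a7 and Slc32a1 stand among the other vesicle membrane proteins and also among the mature granule neuron and GABAergic interneuron markers, respectively. The part of newborn granule neurons in the 9 rises was not tested.

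**Figure D5:**
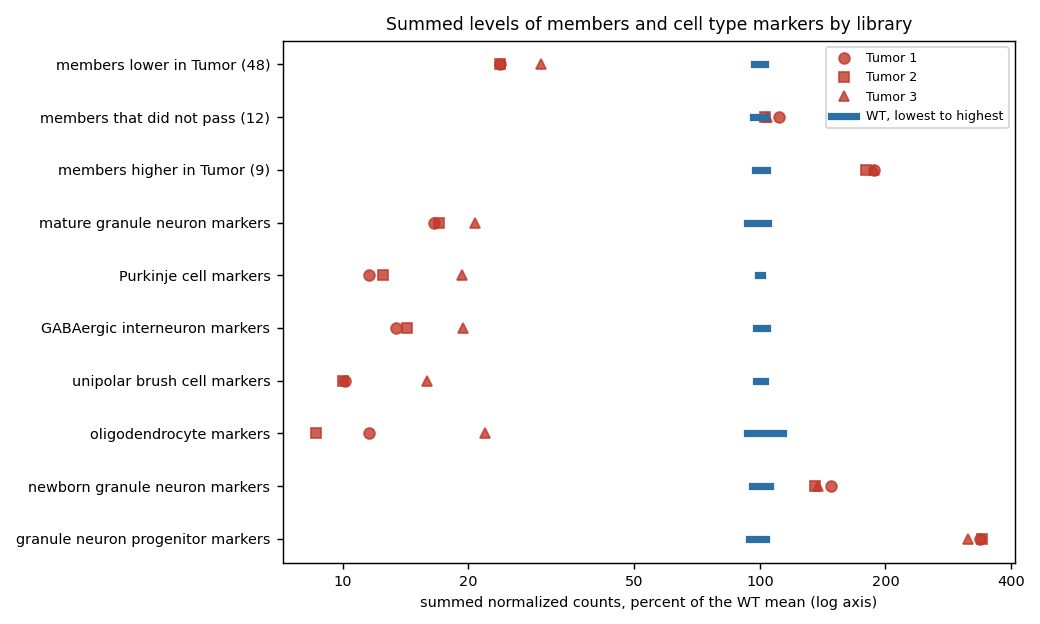
Summed normalized counts of members by call and of cell type markers in each tumor (symbols), as a percentage of the WT mean on a log axis, with the range of the WT cerebella as a bar. Members were grouped by their call on these same values, so where their sums lie against the WT mean follows from the grouping. The marker lists were not chosen by call. Tumor 3 lies highest for the 48 members that fell and for the markers of mature neurons and oligodendrocytes.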

How the data were processed

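Per the labels' protocols, total RNA came from TRIzol extraction with a column cleanup, and the TruSeq RNA v2 library kit was used. Build mm10, featureCounts, Bowtie2 2.2.4, edgeR and FastQC are named in the submitters' processing notes, without roles or order. The annotation and any use of strand were not stated. The authors' deposited table gives 1 signal per gene and library. Each value is a whole read count divided by a size factor: multiplied by that factor, 100% of values were whole within 1e-06 of a read. The deposited fold (ratio of means) and p-value columns were not used, nor was a shorter list by the authors.

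The main test was limma's moderated test with an intensity trend (version 3.58.1, R 4.3.3), run on log2(value + 1) for 22117 genes above 1 in at least 3 libraries, with Benjamini-Hochberg adjustment over all of them. Fold changes are on that log2(value + 1) scale, which understates changes of low genes. Group means are arithmetic, ± SD with n = 3. The script was tested on simulated data. Members and lists were chosen with earlier results of these data known. Counts over all members include 2 members that are not reported singly here. Values are given by role for the 2 largest and 2 smallest called log2 fold changes, paralog pairs and uncalled members averaging at least 100 counts; other lists name the 2 largest and 2 smallest called. Alternatives were edgeR 4.0.16 and DESeq2 1.42.0 on recovered reads, other pseudocounts, filters and scalings, each library left out, and a replicate block. Gene bounds equalled GENCODE M21 for 47 of 70 members found there. Exon length shared with other genes exceeded 10% for Stx18, Syt12, Syt4 and Syn3.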

Additional observations from a re-analysis of the deposited data

How the results depend on the processing

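Of 69 tested members, 60 kept their direction and their side of the threshold under each of the 17 alternatives in which they could be fitted. The count of members lower ran from 46 to 49 and of members higher from 8 to 11, with 11 under library totals. Leaving out 1 library gave 46 to 48 lower and 8 to 10 higher. With the replicate block 47 were lower and 9 higher, since Syt14 lost its call (limma adjusted p = 0.0737) and no other member's call changed. Same-numbered tumor and WT libraries share only a number: their deviations from the group means correlated at 0.0221, -0.0512 and -0.0073, and 1 of 3 tumors correlated best with its own number. Syt14 was also lost by edgeR (0.0787 and 0.0684) and DESeq2 (0.0657). Library totals moved the median of all genes by 0.09 on the log2 scale and called Snap23 and Stx12 higher. Upper-quartile scaling called Syt6 lower. Directions reversed for Stx18 with library totals (log2 fold change 0.0123), for Syt8 at a pseudocount of 0.1 (-0.53), and for Syt8 (-0.30 to 0.67) and the ratio of Syt2 to Syt1 (-0.26 to 0.0205) when 1 library was left out, all uncalled. The 1 mature granule neuron marker that rose was at 0 such calls with upper-quartile scaling, and at 0 to 1 with 1 library left out. The 1 oligodendrocyte precursor marker that fell was at 0 with library totals and 0 to 1 with 1 library left out, and choroid plexus markers lower ran from 5 to 9, against 8 with all libraries. Cplx4 and Syt8 are limited by depth. The causes of these moves were not tested.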
